A study of Danio rerio with 6 samples.

Results

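The 10 genes described here are germ plasm and piRNA pathway genes of the zebrafish: buc, dazl, nanos3, dnd1, ddx4, ca15b, tdrd7a, tdrd1, piwil1 and piwil2. They were chosen by name for their known roles by a rule that uses no measured value, though earlier results of these data were known, and all 10 were found among the 32099 Ensembl genes of the count tables. Wild-type Tuebingen zygotes were injected with 4.5 ng of either a morpholino that blocks translation of FiNZ-ZNFs (FZNF MO) or a scrambled 25N control (scrambled MO). FZNFs are a large family of fish zinc finger genes, and the study asked whether blocking them changed transposable element and gene expression. Whole embryos were collected at shield stage (6 h post fertilization), and poly(A) RNA was sequenced from 3 libraries per group. Each FZNF MO library has a scrambled MO partner with the same replicate number, read here as a pair of injections. Pairs 1 and 2 were collected on 12 May and pair 3 on 17 May, and each library is a pool of embryos. The MO was injected into the zygote and blocks translation rather than removing the transcript, so FZNF RNA is no check of the knockdown.

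In zebrafish, germ cells are set apart by germ plasm, a maternal assembly of RNA and protein that the egg inherits from the oocyte's Balbiani body. The few cells that take it up become primordial germ cells, while the same maternal RNAs are cleared from the soma. Piwi proteins carry piRNAs, small RNAs that guide them to transposable element transcripts in the germ line, and Tudor proteins hold the Piwi proteins in germ granules.

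Of the 10 genes, dazl changed, and it was lower in FZNF MO embryos. Its fitted level was 3.27-fold lower (log2 fold change -1.71). The other 9 did not pass the test, among them ddx4, nanos3 and dnd1, which mark the same germ cells, and both Piwi genes. A gene was called changed at a Benjamini-Hochberg adjusted p under 0.05 by edgeR's quasi-likelihood test, adjusted over all features tested, provided the log2 fold change was also 0.32 or more in size. By that rule 0 members were higher and 1 was lower. Of the 15309 Ensembl genes tested, 4.66% were called, 2.38% higher and 2.28% lower. The median log2 fold change of the members was 0.12, and that of all Ensembl genes tested was -0.02. Whole embryos were sequenced. Fewer germ cells, less RNA per cell and less maternal RNA left in the soma therefore cannot be told apart in any value below. The libraries were also poly(A)-selected, and the study states that maternal mRNAs carry poly(A) only in part at first. The part of poly(A) tails in these values was not tested.

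**Figure D1:**
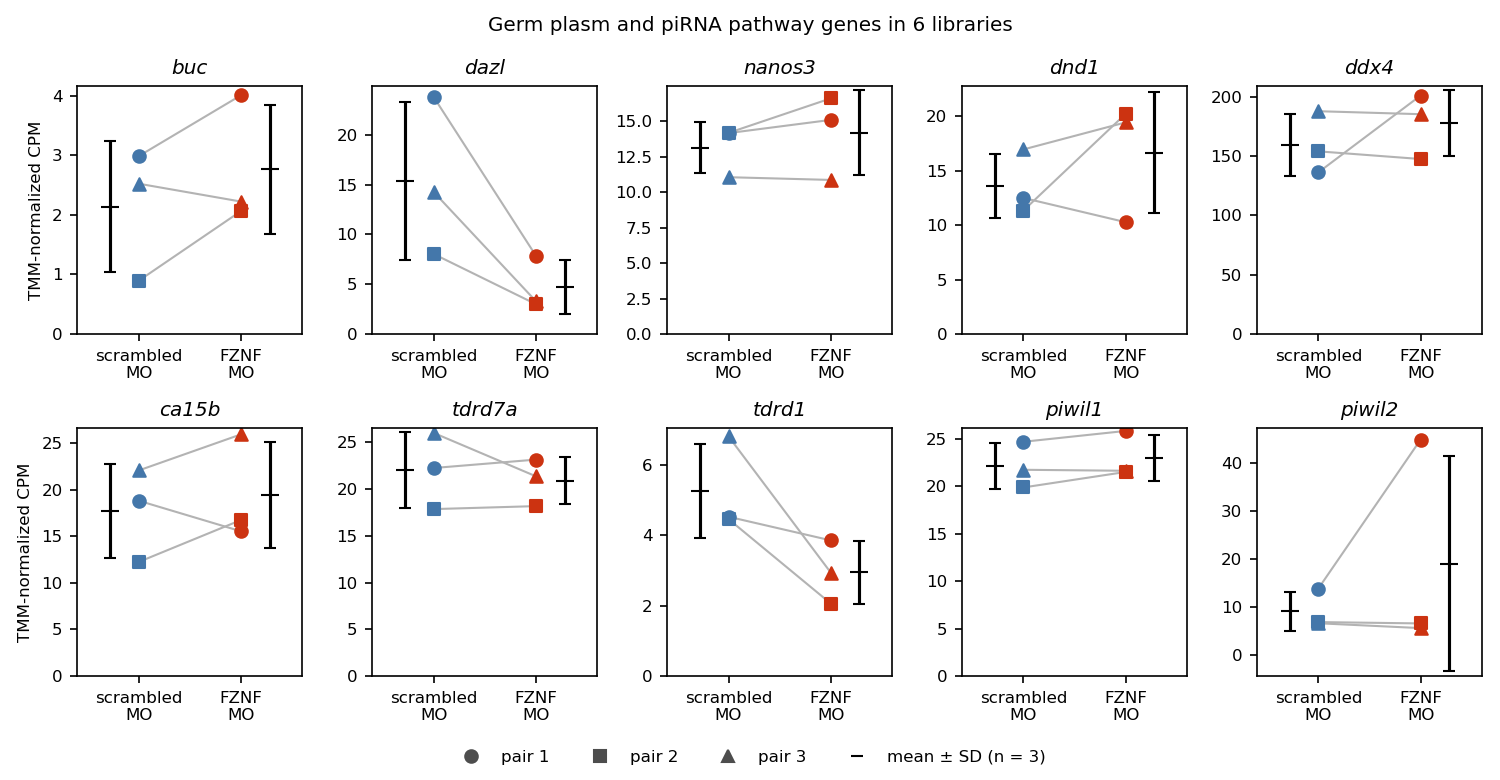
Level of each of the 10 genes in TMM-normalized CPM (linear axis) in the scrambled MO (blue) and FZNF MO (red) libraries; grey lines join the 2 libraries of a pair, and black bars give the mean ± SD of 3 libraries. All 3 lines of dazl fall, from 23.8, 8.04 and 14.3 CPM to 7.86, 2.999 and 3.30 CPM, and piwil2 is set by 1 library at 44.8 CPM.

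Levels below are CPM, the counts of a gene scaled to the size of its library after TMM adjustment, given for replicates 1, 2 and 3 in that order. The libraries held 16306069 to 20567549 counts. No member was at 0 in any library, and the raw counts ran from 17, for buc, to 4165, for ddx4. All 10 passed the filter on low counts. As CPM is not corrected for transcript length, levels are compared between libraries and never between genes. Together the 10 genes made up 254 to 351 CPM in FZNF MO libraries and 250 to 316 CPM in scrambled MO libraries. Much of that sum was ddx4, at 49.8% to 62.1% of the members' counts, so the sum says little of the others.

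The germ plasm organizer buc (Bucky ball) nucleates the Balbiani body and is required for germ plasm assembly. It was the least counted member, with 83, 33 and 37 raw counts in FZNF MO and 52, 17 and 44 in scrambled MO. The levels were 4.00, 2.06 and 2.22 CPM in FZNF MO and 2.98, 0.893 and 2.52 CPM in scrambled MO. The groups overlapped, and the low scrambled MO library of pair 2 was the one that stood below the rest. The log2 fold change was 0.45 ± 0.45 (SE, n = 3 pairs), and its 95% interval of -0.54 to 1.45 was the widest of the 10 (edgeR adjusted p = 0.638). That interval holds no change as well as a log2 difference of 1.

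dazl encodes an RNA-binding protein of germ plasm that binds the 3′ ends of germ cell mRNAs and promotes their translation. Its level was 7.86, 2.999 and 3.30 CPM in FZNF MO and 23.8, 8.04 and 14.3 CPM in scrambled MO. The raw counts were 163, 48 and 55 in FZNF MO and 415, 153 and 249 in scrambled MO. Every FZNF MO library was below every scrambled MO library, though the highest FZNF MO library (7.86) lay close to the lowest scrambled MO library (8.04). The means were 4.72 ± 2.73 CPM and 15.4 ± 7.94 CPM (SD, n = 3 libraries). Within the pairs the FZNF MO library held 33.0%, 37.3% and 23.1% of its partner's level, so dazl was lower in 3 of 3 pairs. Among Ensembl genes tested, 22.9% were lower in 3 of 3 pairs. The fitted log2 fold change was -1.71 ± 0.25 (SE), with a 95% interval of -2.25 to -1.16 (edgeR adjusted p = 0.00209). Of the 15309 Ensembl genes tested, 133 (0.869%) had a lower log2 fold change.

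Much of the spread of dazl lay between pairs. It was highest in pair 1 and lowest in pair 2 in both groups, and varied 2.96-fold among the scrambled MO libraries and 2.62-fold among the FZNF MO libraries. The test of the 3 pairs sets that spread aside. Without the pairing the log2 fold change was nearly the same (-1.69 ± 0.49), but the adjusted p by edgeR was 0.192 and dazl was not called. With the collection day in place of the pair it was 0.227. With the pairing kept, dazl remained called without pair 1, 2 or 3, with adjusted p by edgeR of 0.00218, 0.0253 and 0.00117.

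nanos3, a translational repressor that keeps primordial germ cells alive, was at 15.1, 16.6 and 10.9 CPM in FZNF MO and 14.2, 14.2 and 11.1 CPM in scrambled MO. The groups overlapped, and pair 3 was the lowest in both. nanos3 had a log2 fold change of 0.10 ± 0.20 (SE), with a 95% interval of -0.34 to 0.54 (edgeR adjusted p = 0.837). dnd1 protects germ cell mRNAs from microRNAs and is needed for germ cell migration and survival. It was at 10.3, 20.2 and 19.5 CPM in FZNF MO and 12.5, 11.3 and 17.0 CPM in scrambled MO. The groups overlapped, since dnd1 was below its partner in pair 1 and above it in pairs 2 and 3. dnd1 had a log2 fold change of 0.25 ± 0.24 (SE), with a 95% interval of -0.26 to 0.77 (edgeR adjusted p = 0.609).

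ddx4 (vasa), a DEAD-box RNA helicase of germ granules and the usual germ cell marker, was the best counted member. It was at 201, 147 and 185 CPM in FZNF MO and 136, 154 and 188 CPM in scrambled MO. The groups overlapped, and the libraries of pairs 2 and 3 nearly met their partners, at 95.8% and 98.7% of the scrambled MO level. In pair 1 FZNF MO held 148% of its partner. ddx4 had a log2 fold change of 0.16 ± 0.13 (SE), and its 95% interval of -0.13 to 0.45 was the narrowest of the 10 (edgeR adjusted p = 0.558).

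ca15b encodes a carbonic anhydrase whose RNA is enriched in primordial germ cells of the zebrafish. It was at 15.5, 16.7 and 25.9 CPM in FZNF MO and 18.8, 12.2 and 22.1 CPM in scrambled MO. The groups overlapped, and pair 3 was the highest in both. Its log2 fold change was 0.13 ± 0.20 (SE), with a 95% interval of -0.30 to 0.57 (edgeR adjusted p = 0.764). ca15b has close relatives in the genome, and how reads that match more than one of them were shared was not tested.

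The Tudor proteins form the scaffold of germ granules. tdrd7a, which shapes those granules, was at 23.2, 18.2 and 21.4 CPM in FZNF MO and 22.3, 17.9 and 26.02 CPM in scrambled MO. The groups overlapped, and in pairs 1 and 2 the partners differed little. For tdrd7a the log2 fold change was -0.07 ± 0.18 (SE), with a 95% interval of -0.45 to 0.32 (edgeR adjusted p = 0.877).

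tdrd1 binds Piwi proteins and their targets in the germ granules. It was at 3.86, 2.06 and 2.94 CPM in FZNF MO and 4.53, 4.47 and 6.82 CPM in scrambled MO. As for dazl, the groups did not overlap, with FZNF MO below. Groups that did not overlap were found for 2 of the 10 members, both with FZNF MO below, and for 16.6% of Ensembl genes tested, 9.08% with FZNF MO below. tdrd1 was at 85.2%, 46.2% and 43.1% of its partner in pairs 1, 2 and 3. Its fitted log2 fold change was -0.84 ± 0.35 (SE), with a 95% interval of -1.61 to -0.07. This did not pass the test (edgeR unadjusted p = 0.0342, adjusted p = 0.205), and 19.1% of Ensembl genes tested had an unadjusted p under 0.05. Its raw counts were low, from 33 to 119.

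piwil1 (Ziwi) and piwil2 (Zili) are the Piwi proteins of the zebrafish, which load piRNAs and cut or silence transposable element transcripts. piwil1 was at 25.8, 21.5 and 21.6 CPM in FZNF MO and 24.7, 19.9 and 21.7 CPM in scrambled MO. The groups overlapped and each FZNF MO library was near its partner. For piwil1 the log2 fold change was 0.06 ± 0.17 (SE), with a 95% interval of -0.31 to 0.42 (edgeR adjusted p = 0.892).

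piwil2 was at 44.8, 6.50 and 5.52 CPM in FZNF MO and 13.8, 6.78 and 6.53 CPM in scrambled MO. One library, FZNF MO replicate 1, was 3.26-fold above the next, its own partner, while in pairs 2 and 3 FZNF MO held 95.9% and 84.6% of the scrambled MO level. The log2 fold change was 0.51 ± 0.34 (SE), with a 95% interval of -0.23 to 1.26 (edgeR adjusted p = 0.449). Without pair 1 it turned to -0.15 ± 0.36. FZNF MO replicate 1 stood apart for other genes too. Of 10966 Ensembl genes with a mean count of at least 50, 26 were at least 3-fold above every other library there, against 0 to 5 in each of the other 5 libraries. The part of that library in the piwil2 value was not tested beyond leaving it out.

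**Figure D2:**
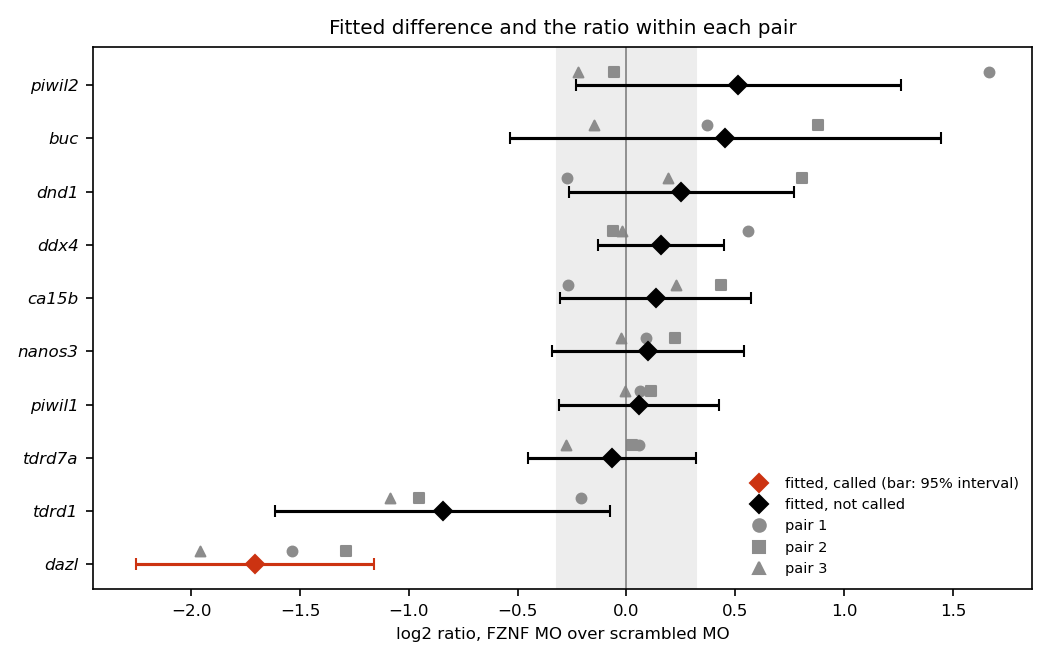
Fitted log2 ratio of FZNF MO over scrambled MO for each gene (diamond, with its 95% interval as a bar) and the ratio within each of the 3 pairs (grey symbols, drawn just above the diamond); the grey band spans log2 ratios of -0.32 to 0.32, inside which no gene is called. dazl, in red at -1.71, is the called gene, and the interval of tdrd1 reaches from -1.61 to -0.07.

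Set beside each other, 8 of the 10 genes had a 95% interval that held 0, and for 6 of the 10 the interval lay within 1 log2 unit of no change on either side. The fitted values of the 8 genes other than dazl and tdrd1 ran from -0.07 to 0.51. The lower bound of 8 of the 10 intervals was above the upper bound of the interval of dazl, -1.16, the exception beside dazl itself being tdrd1. In direction, 2 members were lower in 3 of 3 pairs, 0 were higher in 3 of 3 pairs and 8 were mixed. For comparison, 22.9% of Ensembl genes tested were lower in 3 of 3 pairs. The direction was the same in 3 of 3 pairs, lower or higher, for 42.5% of them.

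As ddx4 is the usual germ cell marker, the members were also expressed as raw counts per 100 ddx4 counts of the same library, a quantity that needs no scaling. dazl was at 3.91, 2.03 and 1.78 per 100 ddx4 counts in FZNF MO and 17.5, 5.22 and 7.60 in scrambled MO. The groups did not overlap, with FZNF MO lower in 3 of 3 pairs. tdrd1 was at 1.92, 1.40 and 1.59 in FZNF MO and 3.33, 2.90 and 3.63 in scrambled MO. Its groups lay apart as well, at 1.64 ± 0.264 and 3.29 ± 0.367 (SD, n = 3 libraries). In pair 1, however, the raw counts of tdrd1 were 80 in FZNF MO and 79 in scrambled MO. The lower ratio in that pair came with ddx4 counts of 4165 in FZNF MO and 2374 in scrambled MO. The other 7 ratios overlapped between the groups. These 2 ratios were picked after their values were seen. For both the two-sided exact permutation p, taken without the pairs, was 0.1, also after Benjamini-Hochberg adjustment over the 2. That is the smallest p that 3 against 3 libraries allow, and groups that lie apart always give it. It therefore adds nothing to the lack of overlap.

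The genes whose profile over the 6 libraries was nearest to that of dazl were btg4, dlb and wee2. Nearness was the root mean square distance of log2 CPM, each gene centred on its own mean, and was 0.34 for each of the 3 against a median of 1.06 over 9507 candidate genes. btg4, which in mouse brings the deadenylase to maternal mRNAs, was at 4.20, 1.06 and 1.74 CPM in FZNF MO and 11.6, 3.94 and 3.95 CPM in scrambled MO. The groups overlapped but every pair fell, and btg4 was called lower (log2 fold change -1.50 ± 0.34, edgeR adjusted p = 0.0245). Without pair 1 or pair 2 it was not called (edgeR adjusted p = 0.149 and 0.235), and leaving out 1 pair or library moved it between -2.21 and -0.75. wee2, a kinase that holds the cell cycle of mammalian oocytes, was at 46.3, 20.2 and 28.6 CPM in FZNF MO and 113, 80.5 and 99.1 CPM in scrambled MO. Its groups lay far apart, and it was called lower (log2 fold change -1.69 ± 0.16, edgeR adjusted p = 8.70e-05). dlb, a ligand of Notch, did not pass the test (log2 fold change -1.18 ± 0.36). As these genes were picked for a profile like that of dazl, their direction is no independent result.

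**Figure D3:**
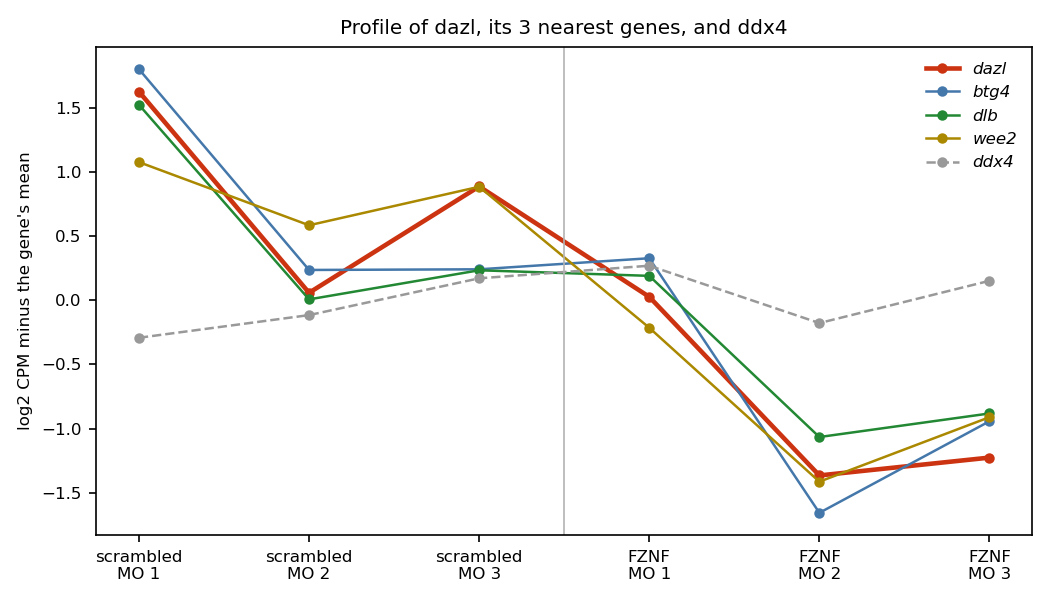
log2 CPM of dazl (red), of the 3 genes nearest to it (btg4, dlb and wee2) and of ddx4 (grey, dashed) in each of the 6 libraries, with each gene's mean over the libraries subtracted. dazl is low in FZNF MO replicates 2 and 3 and high in scrambled MO replicate 1, the library where ddx4 is lowest, at 136 CPM.

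Of 52 further piRNA, germ plasm and germ cell guidance genes listed, 36 were matched to the tables and 30 were tested. Of these 1 was called higher and 1 lower, and their median log2 fold change was -0.12. That is 6.67% called, beside the 4.66% of all Ensembl genes. An unadjusted edgeR p under 0.05 was found for 30.0% of the 30, with 5 higher and 4 lower, beside 19.1% of all Ensembl genes tested. The remaining 6 of the 36 had no more than 24 counts in any library, and nanos2 and mov10b.2 were at 0 in all 6.

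Among the other piRNA pathway genes, 15 of 24 listed were tested, with 1 higher and 0 lower. tdrd15, another Tudor protein, was at 82.0, 103 and 98.5 CPM in FZNF MO and 47.7, 60.9 and 77.6 CPM in scrambled MO. Every FZNF MO library was above every scrambled MO library. The log2 fold change of tdrd15 was 0.63 ± 0.13 (SE, edgeR adjusted p = 0.0172). Without pair 2 it was 0.57 and was not called (edgeR adjusted p = 0.302), as it was not without the pairing (0.267). The groups did not overlap for 16.7% of the 30 further genes tested, beside 16.6% of all Ensembl genes tested. In this list that was 4 of 15 genes. Beside tdrd15, exd1 (0.79 ± 0.25, edgeR adjusted p = 0.0979) and gtsf1 (0.19 ± 0.10, edgeR adjusted p = 0.322) lay above the controls and henmt1 (-0.94 ± 0.38, edgeR adjusted p = 0.189) below, and these 3 did not pass the test.

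Among the other germ plasm and germ cell genes, 14 of 23 listed were tested, with 0 higher and 1 lower. h1m, a maternal linker histone whose RNA persists in primordial germ cells, was at 106, 31.5 and 63.0 CPM in FZNF MO and 171, 56.7 and 93.3 CPM in scrambled MO. As for dazl, pair 1 was highest and pair 2 lowest in both groups, and every pair fell, although the groups overlapped. The log2 fold change of h1m was -0.70 ± 0.12 (SE, edgeR adjusted p = 0.00580). Without pair 2 it was -0.62 and was not called (edgeR adjusted p = 0.187), as it was not without the pairing (0.657). Of the guidance genes of the soma, 1 of 5 listed was tested, cxcl12b, a chemokine of the family that steers germ cells, and it did not pass the test (log2 fold change -0.22 ± 0.14, edgeR adjusted p = 0.421).

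These counts miss listed genes that the name table holds without their paralog letter, so that a and b copies cannot be told apart. Looked up that way, after the values were seen, the 3 lists gained 12 tested genes, some possibly the copy that was not listed. Of these 12, 3 were called higher and 2 lower. With them 42 genes were tested, 4 were higher and 3 lower, and the median log2 fold change was 0.02. That is 16.7% called, beside 4.66% of all Ensembl genes tested, on lists extended after the values were seen. The lowest was 1 of 2 genes named rbpms2 (ENSDARG00000079578), an RNA-binding protein of the Balbiani body. It was at 15.7, 4.998 and 7.02 CPM in FZNF MO and 53.6, 27.9 and 48.7 CPM in scrambled MO. Its groups lay far apart, and like dazl it was highest in pair 1 and lowest in pair 2 in both. The log2 fold change of this rbpms2 was -2.33 ± 0.22 (edgeR adjusted p = 9.13e-05), a larger fall than that of dazl, and it remained called without pair 1, 2 or 3. The other rbpms2 (ENSDARG00000045930) did not pass the test (-0.41 ± 0.28, edgeR adjusted p = 0.460).

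The 4 other called genes were grip2, both genes named cxcr4, and ackr3. grip2 was at 0.86 ± 0.22 (edgeR adjusted p = 0.0421). The list named grip2a, a germ plasm scaffold gene, and whether this entry is that copy could not be told. Both genes named cxcr4, receptors of the chemokine family that guides germ cells, were at 0.51 ± 0.12 and 0.41 ± 0.10 (edgeR adjusted p = 0.0264 and 0.0391). ackr3, a scavenger receptor of that chemokine, was at -0.61 ± 0.16 (edgeR adjusted p = 0.0493). None of these 4 was called without pair 1 or without pair 2. With RLE factors ackr3 was not called either (edgeR adjusted p = 0.0533). The called grip2 is ENSDARG00000087187 and the called ackr3 is ENSDARG00000058179. Another entry named grip2 (ENSDARG00000027618) had at most 7 counts in any library and was not tested. Nor was another entry named ackr3 (ENSDARG00000062478), with at most 2 counts. Soma and germ cells both express chemokine receptors, and whole embryos do not separate them.

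**Figure D4:**
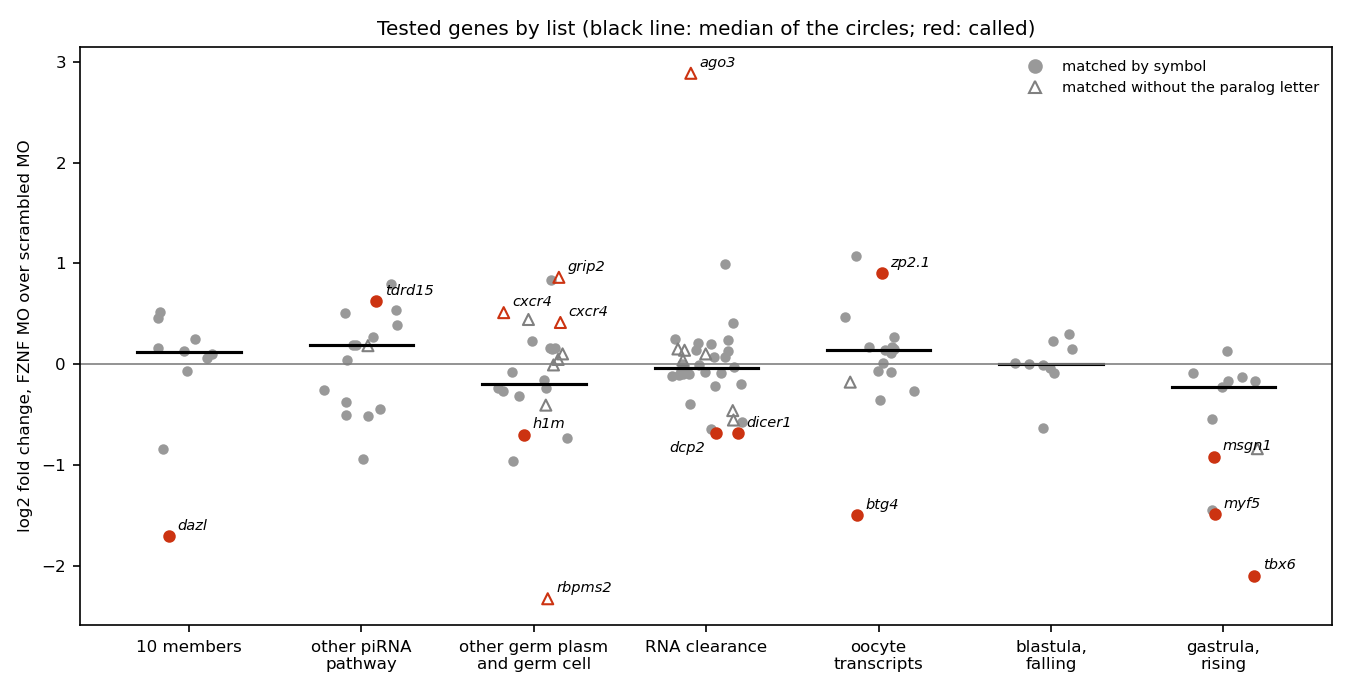
log2 fold change of FZNF MO over scrambled MO for each tested gene of 7 lists (circles matched by symbol, triangles matched without the paralog letter; spread sideways for sight; red symbols are called and named) with the median of the circles as a black line. The members have a median of 0.12 and 1 called gene, dazl at -1.71, while rbpms2 at -2.33 lies lower.

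As germ plasm RNAs are maternal RNAs under clearance in the soma, RNA levels of clearance genes and oocyte transcripts were set beside dazl. Clearance itself was not measured, and a link of these levels to dazl was not tested. For scale, 4.66% of all Ensembl genes tested were called. Of 28 RNA clearance genes tested (37 listed), 0 were higher and 2 were lower. These were dcp2, the decapping enzyme (log2 fold change -0.68 ± 0.16, edgeR adjusted p = 0.0282), and dicer1, which makes microRNAs (-0.68 ± 0.18, edgeR adjusted p = 0.0488). Neither was called without pair 1 or pair 2, and dicer1 was not called with RLE factors (edgeR adjusted p = 0.0527). Matching without the paralog letter added 7 tested genes, of which ago3, an Argonaute gene, was higher (2.89 ± 0.58, edgeR adjusted p = 0.0141; not called without pair 2). The raw counts of ago3 were low, at 155, 86 and 47 in FZNF MO and 6, 11 and 20 in scrambled MO. With at least 50 counts required in 3 libraries it was not tested. ago3a, matched by symbol, did not pass the test (-0.64 ± 0.66, edgeR adjusted p = 0.648). Of 15 oocyte transcripts tested (18 listed), 1 was higher, the egg coat gene zp2.1 (0.90 ± 0.22, edgeR adjusted p = 0.0362; not called without pair 1 or pair 2), and 1 was lower, btg4. The summed CPM of the oocyte list was 735 to 873 in FZNF MO and 735 to 839 in scrambled MO, of which the cyclin gene ccnb1 gave 409 to 549 and 406 to 555.

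Some genes of the stage and tissue lists were called. The counts below stand beside 4.66% of all Ensembl genes called. Of 9 blastula genes that fall in gastrulation, 0 were called, and the 2 with the smallest p were ved (0.30 ± 0.11, edgeR adjusted p = 0.143) and foxd3 (0.23 ± 0.14, edgeR adjusted p = 0.416). Of 11 genes that rise in gastrulation tested (15 listed), 3 were lower, tbx6, myf5 and msgn1, with log2 fold changes of -2.10 ± 0.35, -1.49 ± 0.32 and -0.92 ± 0.21 (edgeR adjusted p = 0.00473, 0.0194 and 0.0286). None of the 3 was called without pair 2, and msgn1 was not called by DESeq2 (DESeq2 adjusted p = 0.184). The summed CPM of that list was 849 to 1005 in FZNF MO and 916 to 1314 in scrambled MO. Their part in the dazl value was not tested.

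Of 7 mesoderm markers tested (8 listed, with hand2 at 0), 3 were called lower, tbx6, msgn1 and aplnrb (-0.54 ± 0.11, edgeR adjusted p = 0.0143). tbx6 and msgn1 are the same genes as in the rising list. By sign, 5 of the 7 were lower and 2 higher. The higher ones, tbx16 (0.29 ± 0.10, edgeR adjusted p = 0.137) and tbxta (0.22 ± 0.12, edgeR adjusted p = 0.317), rose in 3 of 3 pairs but were not called. The summed CPM of the mesoderm list was 1152 to 1736 in FZNF MO and 1292 to 1529 in scrambled MO. Of 5 endoderm markers tested (6 listed), gata5 was higher (0.56 ± 0.14, edgeR adjusted p = 0.0345) and foxa2 was lower (-0.78 ± 0.19, edgeR adjusted p = 0.0353), at 372 to 553 CPM summed against 411 to 523. The endoderm list also names cxcr4a. Which of the genes named cxcr4 is that copy could not be told, and both were higher. No marker was called among 5 of the ectoderm, 9 of the enveloping layer and 6 of the yolk syncytial layer, where apoea was at 0. Matching without the paralog letter added dlx3 to the ectoderm, called lower (-1.22 ± 0.29, edgeR adjusted p = 0.0294). Without pair 2 none of these mesoderm, endoderm and ectoderm calls held. Among the genes with the smallest p in those lists were sox3 (0.29 ± 0.11, edgeR adjusted p = 0.144), tfap2c (0.17 ± 0.10, edgeR adjusted p = 0.413), cyt1 (-0.27 ± 0.10, edgeR adjusted p = 0.153), hnf4a (0.16 ± 0.12, edgeR adjusted p = 0.515) and gata6 (-0.11 ± 0.10, edgeR adjusted p = 0.610). Summed CPM in FZNF MO and scrambled MO was 1095 to 1290 and 963 to 1130 for the ectoderm, 12558 to 14181 and 12362 to 14168 for the enveloping layer, and 492 to 719 and 501 to 669 for the yolk syncytial layer. FZNF transcripts made up 0.713% to 1.21% of counts in FZNF MO and 0.476% to 0.554% in scrambled MO.

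**Figure D5:**
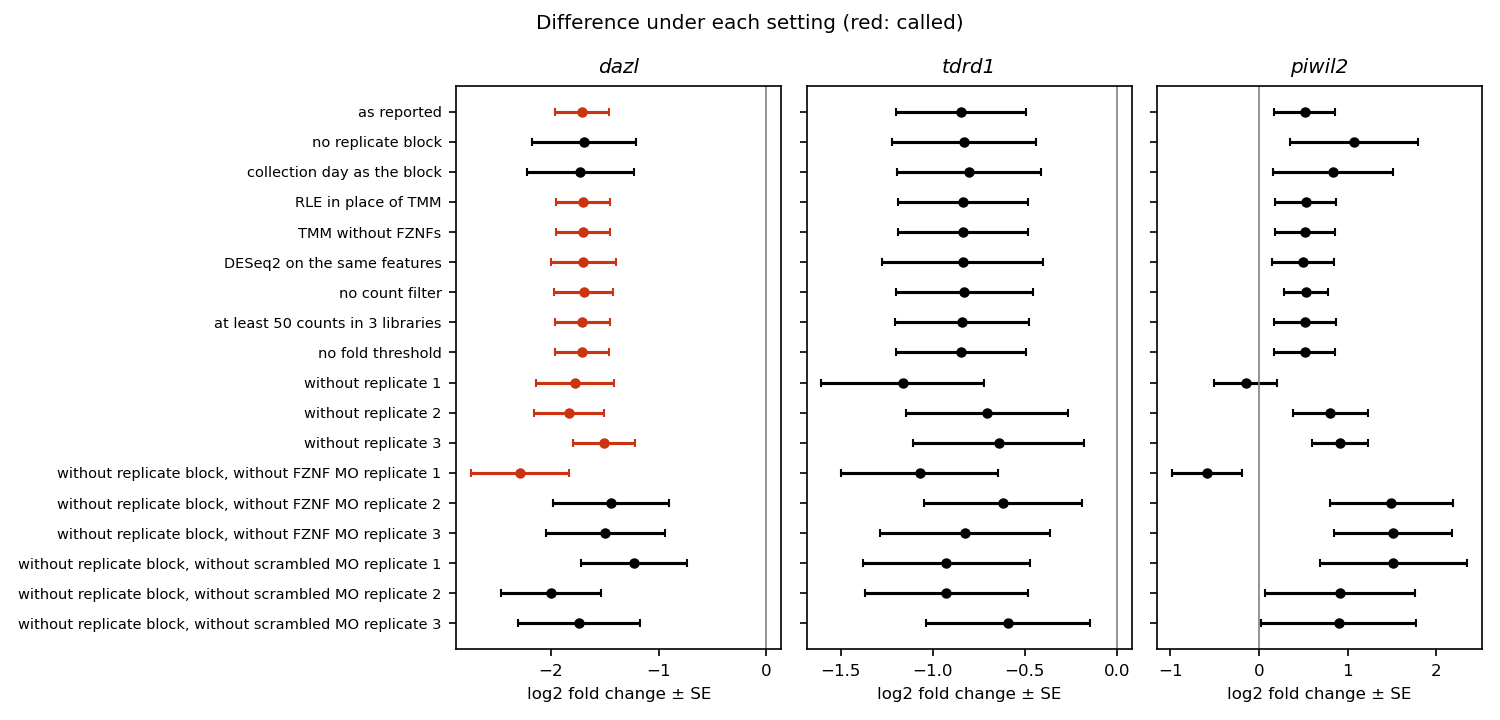
log2 fold change of dazl, tdrd1 and piwil2 (point, with its SE as a bar; red where called) as reported and under each other setting of normalization, tool, filter, block and libraries left out. dazl stays between -2.28 and -1.23, tdrd1 between -1.16 and -0.59 and is never called, and piwil2 runs from -0.59 to 1.52.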

How the data were processed

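Per the labels, strand-specific poly(A) libraries were sequenced as 150 bp paired-end reads. Read quality was checked by the authors in FastQC 0.11.9, alignment to GRCz11 was done in STAR 2.7.5a, and the authors counted genes, FZNF models and transposable element families with TEcount. The values used are the raw counts the authors deposited, 1 table per library. For the Ensembl release, a version is not given in the sources used here. All 10 members and all gene lists were chosen with earlier results of these data known. Symbols were matched to Ensembl identifiers through a gene name table, by exact match or, where that table writes them in capitals (7 of the 10 members), by a unique match that ignores case. Listed symbols without a match were looked up again without their last a or b, an alternative added after the data were seen.

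Features were filtered with edgeR's filterByExpr, scaled by TMM and tested with edgeR 4.0.16 (R 4.3.3, limma 3.58.1), with pair and condition as terms, on 17804 features. Benjamini-Hochberg adjustment ran over all of them, and 5.45% were called. Standard errors and 95% intervals came from the fold change and the F statistic. The study injected in pairs, and deviations from the group means correlated within pairs (r = 0.451, 0.327 and 0.244) and from -0.315 to 0.0583 between them. All replicates differed by more than counting noise, with a chi-square of 20.3 or more per degree of freedom. Embryos were pooled, so p-values rest on the spread between pairs of pools. The quasi-likelihood fit of edgeR also draws on the spread of other genes. An SE or p-value therefore does not measure the spread of that gene's own pairs alone.

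All members were named. Of each other list, called genes were named (up to 6 by smallest p), or else the 2 with the smallest p, except 1 gene that is not reported here. For the member with the smallest p, the 3 nearest genes with a plain symbol and a mean count of at least 50 were named. Alternatives were no block, collection day as block, RLE factors, TMM without FZNFs, DESeq2 1.42.0, no count filter, at least 50 counts in 3 libraries, no fold threshold, and each pair or library left out. No genome coordinates are given, since the gene table used is of another assembly.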

Additional observations from a re-analysis of the deposited data

How the results depend on the processing

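dazl was the 1 member called, and that count held with RLE factors, TMM without FZNFs, DESeq2 (adjusted p = 1.34e-06), no count filter, at least 50 counts in 3 libraries (buc then untested), no fold threshold and each pair left out. With no replicate block the count was 0 members, 0 other pathway genes and 57 Ensembl genes, and with the collection day as the block it was 0, 0 and 46, against 1, 2 and 714 as reported. Those fits leave the spread between pairs in the error. DESeq2 and no count filter each called 4 other pathway genes (h1m, pum2, tdrd15 and tdrd9), and no count filter called 1508 Ensembl genes. Matching names also without the paralog letter gave 7 other pathway genes. Alternatives were followed for 20 called genes named outside the members, from the lists and the genes nearest to dazl. Of these, 10 were not called without pair 1, 18 without pair 2, 1 without pair 3 and 18 with no replicate block. wee2 and rbpms2 remained called in these 4 fits. RLE factors and TMM without FZNFs each lost 2 of the 20, dicer1 and ackr3, and DESeq2 lost 1, msgn1. With the collection day as the block, all 20 named genes, wee2 and rbpms2 included, were not called. With no block and 1 library left out, 18 to 20 of them were not called. Leaving out a pair, or a library with no block, gave 0 to 1 members, 0 to 4 other pathway genes and 11 to 1844 Ensembl genes; with pair 1, 2 or 3 left out the last was 430, 66 and 1844. The cause was not tested. The log2 fold change of dazl stayed between -2.28 and -1.23 under all 17 alternatives. dazl was called in 10 of the 17 and not called in 7, where its edgeR adjusted p reached 0.536. Among the 10, no fold threshold reuses the reported fit, so dazl had to stay called there. Some members changed sign when a pair or library was left out: ddx4 (-0.040 to 0.31), dnd1 (-0.029 to 0.55), ca15b (-0.13 to 0.34), tdrd7a (-0.20 to 0.071), nanos3 (-0.0057 to 0.27) and piwil1 (-0.034 to 0.15). So did piwil2 (-0.59 to 1.52), whose fitted value of 0.51 was the highest of the members. None of these was called under any alternative. Levels per transcript length were not run, as no transcript lengths were used here. Depth limits buc and tdrd1 most, with raw counts of 17 to 83 and 33 to 119.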

Other observations

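piwil2 ranked 14th of the 26 genes that were at least 3-fold above every other library in FZNF MO replicate 1. Of the 26, pcsk5a ranked first, at 18.1 CPM there and at most 3.24 CPM elsewhere. 42sp43, which in Xenopus encodes a protein of oocyte storage particles, was at 19.9 CPM there and at 5.81 and 5.52 CPM in the other FZNF MO libraries, against 3.50, 1.05 and 1.43 CPM in scrambled MO. The profiles nearest to that of piwil2, sought after its values were seen, were those of metrnl, atl2 and lnpk, at distances of 0.281, 0.311 and 0.330 on the log2 scale over the 6 libraries.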
